A study of Mus musculus with 8 samples.

Results

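The genes described here encode sensors of RNA in the cytosol and MAVS, the adaptor of the sensors RIG-I and MDA5. They were taken from a fixed list of gene symbols, and each symbol was matched to 1 Ensembl identifier in the count data. The list holds 7 of the 54532 genes counted: Ddx58 (RIG-I), Ifih1 (MDA5), Dhx58 (LGP2), Mavs, Eif2ak2 (PKR), Ddx60 and Zc3hav1 (ZAP). All 7 passed the filter on low counts, with between 538 and 3823 counts in a library. The list was drawn up with earlier results of these data known. All of these genes except Mavs also belong to M7core, the gene set of the study, which came from a module singled out in Trex1-KO cells, so the direction of their change in Trex1-KO cells is not independent of that choice.

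RNA-Seq of polyadenylated RNA was performed on bone marrow-derived macrophages (BMDMs), cells grown from mouse marrow for 7 days in medium with L929 cell supernatant, which supplies a macrophage growth factor. Mice were 6 to 8 weeks old. The 4 groups of 2 libraries were WT cells, Trex1-/- cells (Trex1-KO), and Trex1-/- cells given H151 at 500 nM or SN-011, both small-molecule antagonists of STING. Incubation lasted 12 h, with DMSO as vehicle for WT and Trex1-KO. The labels give no SN-011 dose, whereas the methods of the study list the same concentration for both compounds. Trex1 is the exonuclease that removes DNA from the cytosol, and its loss is known to engage cGAS and STING. Per the methods, all mice were on the C57BL/6J background, the knockouts were bred from heterozygous parents and the WT mice were purchased, so genotype and source of the mice cannot be told apart. By their sample numbers, the SN-011 libraries were deposited apart from those of the other groups. Whether they were also made at another time is not given in the sources used here. SN-011 and deposit therefore cannot be told apart in any comparison with that group. The study describes the 2 libraries of a group as independent experiments. How many animals stand behind a library is not given in the sources used here, and p-values measure the spread between these libraries.

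RIG-I and MDA5 are helicases that bind double-stranded RNA and then engage MAVS, an adaptor on the outer mitochondrial membrane, through CARD domains. MAVS in turn activates the kinases TBK1 and IKKε and the factors IRF3, IRF7 and NF-κB, which switch on type I interferon genes. LGP2 belongs to the same helicase family but lacks CARD domains and modulates RIG-I and MDA5. PKR is a kinase that phosphorylates the initiation factor eIF2 when it binds double-stranded RNA, ZAP is a zinc finger protein that binds CpG-rich RNA and directs its decay, and DDX60 is a large helicase with antiviral activity. Most of these genes are known to be induced by interferon, in macrophages as in other cells, while MAVS is known mainly for regulation of its protein.

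Promoter windows of all these genes were examined because 6 of the 7, all but Mavs, moved together in the comparisons that follow. RefSeq promoter windows (assembly GRCm38.p6, 250 bases before to 50 bases after the start of the gene, 300 bases in all) were at hand for 6 of the 7 genes, not for Dhx58. They were searched on both strands for GAAANNGAAA, the core of the interferon-stimulated response element (ISRE), and for TTCNNNGAA, the GAS element bound by STAT dimers. The ISRE core was present in the windows of Ddx58, Ddx60, Eif2ak2 and Ifih1, 4 of 6 genes, against 3.43% of all 32817 windows. The windows of Mavs and Zc3hav1 held no match. The GAS letters were present in 1 of 6 genes, in the window of Eif2ak2 from base -178 to base -170, against 8.29% of all windows. The shares of the 6 count genes with a match in any of their windows, whereas the background counts single windows, so the units differ. Matches are descriptions of sequence and were not tested as binding sites. The ISRE matches are shown on the strand of the gene, with the match in capitals and up to 10 bases on each side in lower case. Bases are counted from 1 at the annotated start, and bases before it are negative. That of Ddx58, at bases 3 to 12 (chr4:40239804-40239833, minus strand), is read on the opposite strand. Ddx60 has a pair of matches, at bases -53 to -44 (chr8:61928024-61928053, plus strand) and at bases -19 to -10 (chr8:61928058-61928087). Those of Eif2ak2 (bases 19 to 28, chr17:78882535-78882564, minus strand) and Ifih1 (bases 33 to 42, chr2:62646206-62646233, minus strand) lie just after the start.
Ddx58: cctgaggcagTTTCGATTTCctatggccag
Ddx60, distal: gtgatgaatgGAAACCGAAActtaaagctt
Ddx60, proximal: gagcagaagaGAAACCGAAActatccttca
Eif2ak2: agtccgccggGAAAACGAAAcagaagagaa
Ifih1: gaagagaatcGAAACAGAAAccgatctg

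Libraries held between 11845470 and 17284863 counts. Trex1 itself could not be used to check the labels, since it had 0 counts in all 8 libraries and 100% of its exonic bases lie in exons of Atrip, which averaged 15.8 ± 2.3 CPM in WT against 67.6 ± 3.9 in Trex1-KO (SD, n = 2). CPM is the count scaled to a common library total with TMM factors. All 9 macrophage markers were above 3 counts in every library, with a summed level of 31040 to 33300 CPM, and 3 of them (Fcgr1, Cd68 and Adgre1) rose in Trex1-KO, or 2 with total counts only. Fcgr1, a receptor for IgG, rose by 1.14 on the log2 scale (edgeR false discovery rate, FDR = 2.66e-07), and its log2 fold changes were -0.50 under H151 and -0.49 under SN-011 (edgeR FDR = 0.00256 and 0.00289). It was the only macrophage marker called with either antagonist (1.84% of all tested genes were called lower with H151 and 2.22% with SN-011). Markers of other cells differed between WT and the knockout. The summed level of 7 fibroblast and stromal markers was 2220 to 2411 CPM in WT and 910 to 1267 CPM in the 6 Trex1-KO libraries with or without antagonist, and 5 of the 6 tested fell in Trex1-KO. That of 8 neutrophil and progenitor markers was 8.68 to 9.64 CPM in WT, with Ly6g and Elane at 0, and 64.5 to 98.6 CPM in the knockout libraries, and all 5 tested rose. Of all 14591 tested genes, 1352 rose and 1038 fell in this comparison. Neither list had a called gene with H151 or SN-011, where only 1.84% and 2.22% of all tested genes were called lower. Summed levels of T and B cell, dendritic cell and erythroid markers were at most 2.14 CPM in any library. The part of these cells in the comparisons with WT was not tested. In bulk RNA, fewer cells of a type and less RNA per cell cannot be told apart.

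Loss of Trex1 was examined first, to ask how the sensors change when cytosolic DNA is not removed. Of the 7 genes, 6 rose in Trex1-KO BMDMs compared with WT BMDMs and 0 fell, by 1.55-fold to 3.19-fold. A gene is called where its FDR, the Benjamini-Hochberg adjusted p of the edgeR quasi-likelihood test taken over all 14591 genes tested, is below 0.05. Of these genes, 9.27% were called higher. The median log2 fold change was 1.40 over the 7 genes and -0.00 over all tested genes. The gene that was not called was Mavs. In every setting tried, the count was the same, 6 called higher. With total counts in place of TMM factors, the calls over all genes were 946 higher and 1598 lower, against 1352 and 1038, and the median over the 7 genes was 1.32.

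Among the RIG-I-like receptors, Ddx58 (ENSMUSG00000040296, chr4:40203773-40239828, GRCm38, minus strand) was measured at 103 and 82.9 CPM in WT, 263 and 252 in Trex1-KO, 128 and 140.0 with H151, and 135 and 139 with SN-011. The Trex1-KO libraries stood highest, the WT libraries lowest and the antagonist libraries between them, with no overlap except between both antagonists. Its log2 fold change in Trex1-KO against WT was 1.47 ± 0.09 (SE, edgeR FDR = 5.72e-08). Ifih1 (ENSMUSG00000026896, chr2:62595798-62646255, minus strand) was measured at 60.5 and 52.2 CPM in WT, 155 and 143 in Trex1-KO, 73.5 and 88.3 with H151, and 78.3 and 86.0 with SN-011. The order of the groups was that of Ddx58. Ifih1 had a log2 fold change of 1.40 ± 0.10 (SE, edgeR FDR = 2.05e-07). Dhx58 (ENSMUSG00000017830, chr11:100694884-100704271, minus strand) was the least abundant in counts, at 47.3 and 36.5 CPM in WT, 117 and 120.3 in Trex1-KO, 53.5 and 63.8 with H151, and 60.3 and 70.2 with SN-011. Here too the knockout libraries without antagonist stood apart from all others, and the log2 fold change was 1.51 ± 0.12 (SE, edgeR FDR = 6.27e-07). Of the exonic bases of Dhx58, 4.31% are shared with the antisense gene Dhx58os, and reads there cannot be assigned unless strand was used in counting. Libraries were strand-specific per the methods, and the strand option of the counter is not given in the sources used here. The 95% intervals of the 3 fold changes overlapped, from 1.29 to 1.66 for Ddx58, 1.20 to 1.61 for Ifih1 and 1.26 to 1.76 for Dhx58.

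Mavs (ENSMUSG00000037523, chr2:131234063-131248025, plus strand), the adaptor of RIG-I and MDA5, was measured at 60.1 and 63.0 CPM in WT, 66.6 and 67.4 in Trex1-KO, 69.5 and 57.0 with H151, and 64.6 and 64.0 with SN-011. The highest and the lowest of the 8 libraries were both in the H151 group. The log2 fold change in Trex1-KO against WT was 0.12 ± 0.09 (SE, edgeR FDR = 0.412), with a 95% interval from -0.07 to 0.31, so that a rise of the size seen for the receptors lies outside it.

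The effector sensors varied most in the size of their change. Eif2ak2 (ENSMUSG00000024079, chr17:78852564-78882573, minus strand) was measured at 85.3 and 71.2 CPM in WT, 174 and 172 in Trex1-KO, 97.2 and 109 with H151, and 95.4 and 112 with SN-011. The Trex1-KO libraries were closest to each other and far above the rest. Its log2 fold change was 1.15 ± 0.09 (SE, edgeR FDR = 1.31e-06), and 4.32% of its exonic bases are shared with genes on the opposite strand. Ddx60 (ENSMUSG00000037921, chr8:61928087-62038244, plus strand) was measured at 70.0 and 64.4 CPM in WT, 218 and 210 in Trex1-KO, 129 and 139 with H151, and 126 and 145 with SN-011. It had the largest log2 fold change of the 7 genes, 1.67 ± 0.08 (SE, edgeR FDR = 6.52e-09), and its antagonist libraries stayed far above both WT libraries. Zc3hav1 (ENSMUSG00000029826, chr6:38305286-38354603, minus strand) was measured at 152 and 135 CPM in WT, 226 and 217 in Trex1-KO, 167 and 167 with H151, and 159 and 154 with SN-011. It rose least of the 6, with a log2 fold change of 0.63 ± 0.07 (SE, edgeR FDR = 1.40e-05) and a 95% interval of 0.49 to 0.77 that lies below those of the other 5. A stretch of 181 bases in its longest transcript is 96.7% identical to one in Nlrc4, a gene that does not overlap it. For each gene only the longest match of 100 bases or more at 95% identity was kept, so further shorter matches would not be seen.

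**Figure D1:**
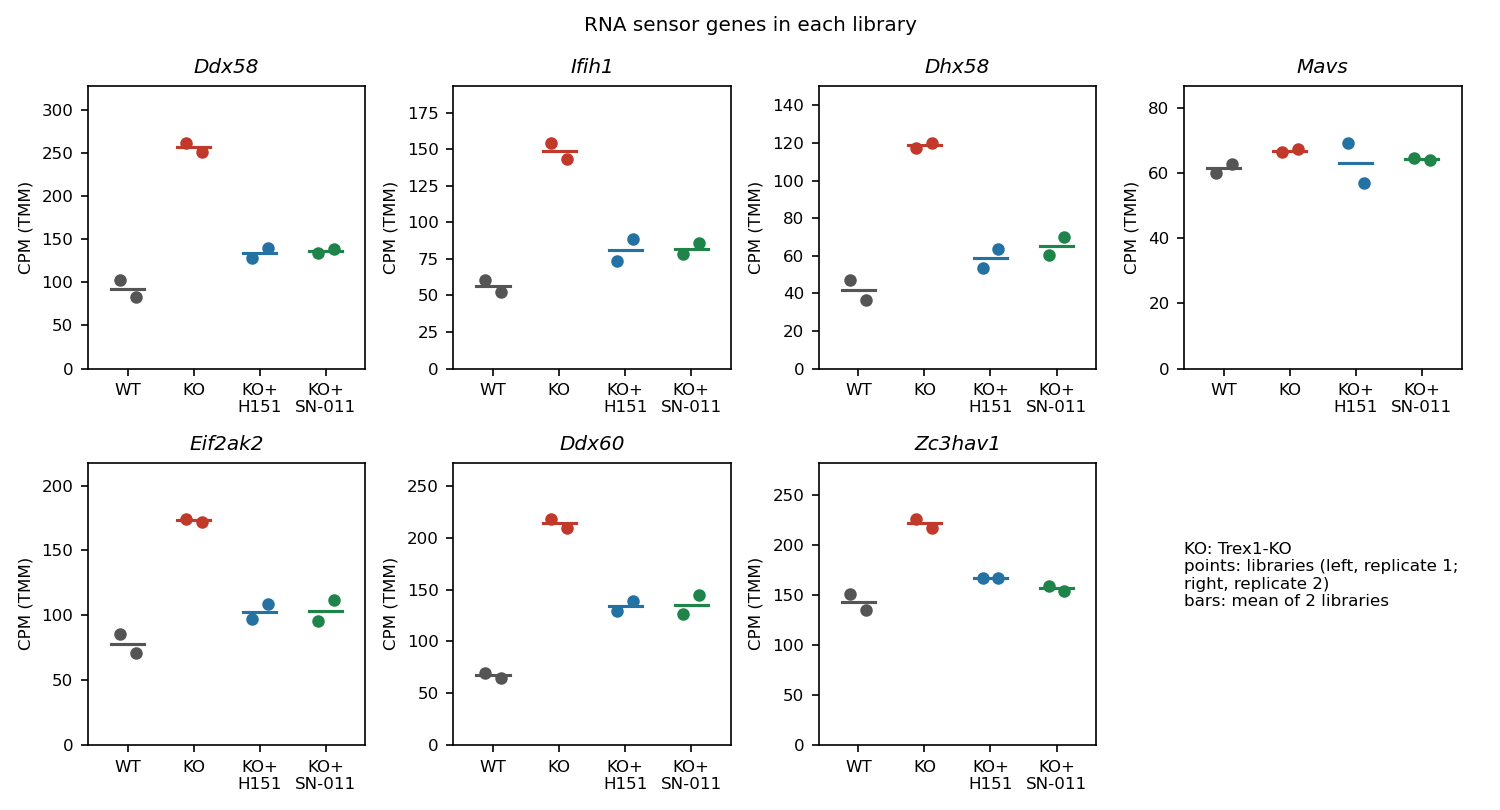
CPM (TMM-normalized, linear axis from 0) of each gene in the 8 libraries, with points for libraries and bars for the means of 2 libraries. For all genes but Mavs both Trex1-KO libraries lie above the other 6, as for Ddx58 at 263 and 252 CPM.

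Replicates differed little beside these changes. The largest ratio between the libraries of a group, over the 6 genes that rose, was 1.30 in WT, 1.08 in Trex1-KO, 1.20 with H151 and 1.17 with SN-011. The deviations were shared by the genes. In WT, replicate 1 was higher than replicate 2 for 6 of 6 genes, whereas with SN-011 replicate 2 was higher for 5 of 6, the exception being Zc3hav1 in the latter group. Replicate 2 was also higher with H151 for 5 of 6, and the values of Zc3hav1 were 167 in both.

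Levels of different genes can be set side by side only per length. On the scale of CPM per kb of exonic sequence, the order in WT was Zc3hav1 (22.0), Mavs (18.4), Eif2ak2 (15.3), Ddx58 (13.2), Dhx58 (12.8), Ddx60 (7.74) and Ifih1 (6.90). Neighbours among Eif2ak2, Ddx58 and Dhx58 overlapped between libraries, and those of Ddx60 and Ifih1 met at 7.41. In Trex1-KO the order of the levels per kb was Ddx58 (36.5), Dhx58 (36.3), Zc3hav1 (34.0), Eif2ak2 (33.9), Ddx60 (24.7), Mavs (20.0) and Ifih1 (18.3). Ddx58 and Dhx58 overlapped there, as did Zc3hav1 and Eif2ak2. Mavs thus stood above RIG-I, LGP2 and PKR transcripts in WT and below them in Trex1-KO while its own level moved from 18.4 to 20.0, and MDA5 transcripts had the lowest mean in both groups. Lengths cover all annotated exons of a gene, so a shorter main transcript would raise its level.

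Antagonists of STING were compared with vehicle to ask which of these levels fall when STING is inhibited. With H151, 6 of the 7 genes fell relative to Trex1-KO and 0 rose, where 1.84% of all tested genes were called lower. With SN-011, 6 fell and 0 rose, where 2.22% of all tested genes were called lower. In both, Mavs was the gene not called, and the medians over the 7 genes were -0.75 with H151 and -0.74 with SN-011 on the log2 scale, against 0.00 and 0.01 over all tested genes. These comparisons share the Trex1-KO libraries with each other and with the comparison to WT, so a low or high Trex1-KO value would move all 3 together.

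Dhx58 fell most with H151, to 0.494 times its level in Trex1-KO, a log2 fold change of -1.02 ± 0.11 (SE, edgeR FDR = 0.000121). With SN-011 its log2 fold change was -0.87 ± 0.11 (SE, edgeR FDR = 0.000478). Ddx58 fell by 0.94 on the log2 scale under H151 (edgeR FDR = 2.68e-05), and under SN-011 by 0.91 (edgeR FDR = 4.02e-05), to 134 ± 8.5 and 137 ± 3.2 CPM (SD, n = 2). Ifih1 fell by 0.88 under H151 (edgeR FDR = 8.54e-05), and under SN-011 by 0.86 (edgeR FDR = 0.000112). The 3 receptors were thus brought to between 0.494 and 0.550 times their level without antagonist.

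Eif2ak2 fell by 0.75 on the log2 scale under H151 (edgeR FDR = 0.000321), and under SN-011 by 0.74 (edgeR FDR = 0.000395). Ddx60, which had risen most, fell by 0.67 under H151 (edgeR FDR = 0.000126), and under SN-011 by 0.66 (edgeR FDR = 0.000165), to 0.627 and 0.632 times its level in Trex1-KO. Zc3hav1 fell least, by 0.41 under H151 (edgeR FDR = 0.00302), and under SN-011 by 0.50 (edgeR FDR = 0.000582). These 12 calls, 6 with each compound, were made in every setting tried, and the largest FDR was 0.0296 with H151, for Zc3hav1 without Trex1-KO replicate 1, and 0.0295 with SN-011, for Dhx58 without SN-011 replicate 1. Mavs had log2 fold changes of -0.09 with H151 (edgeR FDR = 0.900, 95% interval -0.28 to 0.10) and -0.06 with SN-011 (edgeR FDR = 0.848, 95% interval -0.25 to 0.13).

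**Figure D2:**
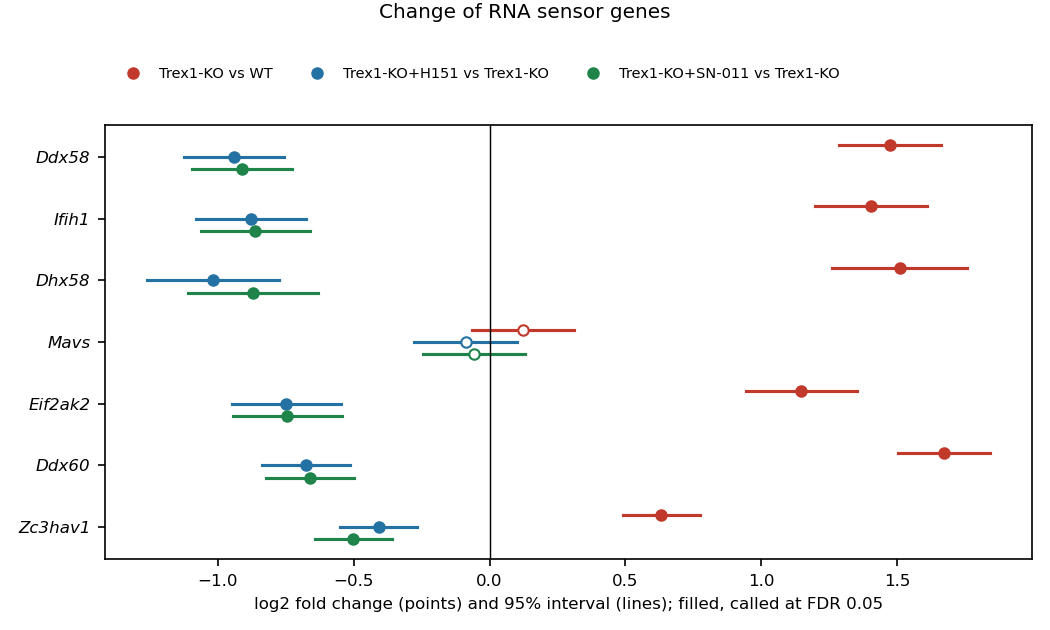
Log2 fold changes with 95% intervals of the 7 genes for Trex1-KO against WT and for each antagonist against Trex1-KO, with filled points for calls at an FDR of 0.05. The points of 6 genes lie right of 0 in the knockout and left of 0 with both antagonists, and the 3 intervals of Mavs cross 0.

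The antagonists were then compared with each other, as 1 pair of compounds at the same incubation time. Since the SN-011 libraries were deposited apart from those of H151, compound and deposit cannot be told apart here. None of the 7 genes was called (0 of 7 with edgeR, also 0 with DESeq2, and 0 at an unadjusted edgeR p under 0.05). Of all 14591 tested genes, 0.158% were called in either direction, and 1300 had an unadjusted edgeR p under 0.05. The difference in log2 fold change, SN-011 minus H151, was 0.03 for Ddx58 (95% interval -0.16 to 0.22), 0.02 for Ifih1 (-0.19 to 0.22), 0.00 for Eif2ak2 (-0.20 to 0.21) and 0.01 for Ddx60 (-0.15 to 0.18). Dhx58 was 1.11 times as high with SN-011 as with H151, a difference of 0.15 (-0.10 to 0.40), and its interval was the widest. For Zc3hav1 the difference was -0.09 (-0.24 to 0.05), with both SN-011 libraries below both H151 libraries, and for Mavs it was 0.03 (-0.16 to 0.22). The upper limit of the interval was 0.40 for Dhx58 and between 0.05 and 0.22 for the other 6 genes, and all 7 intervals included 0.

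Treated knockout cells were also set against WT, to ask how much of the rise was left. With H151, 6 of the 7 genes stayed above WT by this criterion and 0 lay below it, against 6.79% of all tested genes called higher. With SN-011, 5 were called higher and 0 lower, against 6.18% of all tested genes. Ddx60 stayed farthest from WT, 2.00 times its WT level with H151 (log2 fold change 1.00 ± 0.08, SE, edgeR FDR = 2.34e-06) and 2.01 times with SN-011 (1.01 ± 0.08, edgeR FDR = 1.91e-06). Its intervals, 0.83 to 1.17 and 0.84 to 1.18, lay above those of Ddx58, Ifih1, Eif2ak2, Zc3hav1 and Mavs with either compound and above that of Dhx58 with H151.

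The other genes were nearer to WT. Ddx58 was 1.45 times its WT level with H151 (edgeR FDR = 0.00108) and 1.48 times with SN-011 (edgeR FDR = 0.000714). Ifih1 was 1.44 times (edgeR FDR = 0.00266) and 1.46 times its WT level (edgeR FDR = 0.00210), and Dhx58 was 1.41 times (edgeR FDR = 0.0152) and 1.56 times its WT level (edgeR FDR = 0.00257). Eif2ak2, the PKR gene, was 1.32 times its WT level with both (edgeR FDR = 0.0144 and 0.0128). Zc3hav1 was 1.17 times its WT level with H151 (edgeR FDR = 0.0435), a call that was lost with total counts only (FDR = 0.143), with DESeq2 (0.0931) and with only the 4 libraries compared (0.0866), as without WT replicate 2 (0.389) or either H151 library (0.102 and 0.127), and 1.10 times with SN-011 (edgeR FDR = 0.273). For Mavs the log2 fold changes against WT were 0.03 with H151 and 0.06 with SN-011 (edgeR FDR = 0.866 and 0.745). These distances rested on single libraries more than the other comparisons did. Without WT replicate 2 only Ddx58 and Ddx60, 2 of the 7 genes, were called with H151, and 3 were called without H151 replicate 2. With SN-011, 3 were called without SN-011 replicate 2. Without WT replicate 2, the call of Eif2ak2 with SN-011 was also lost (edgeR FDR = 0.179).

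**Figure D3:**
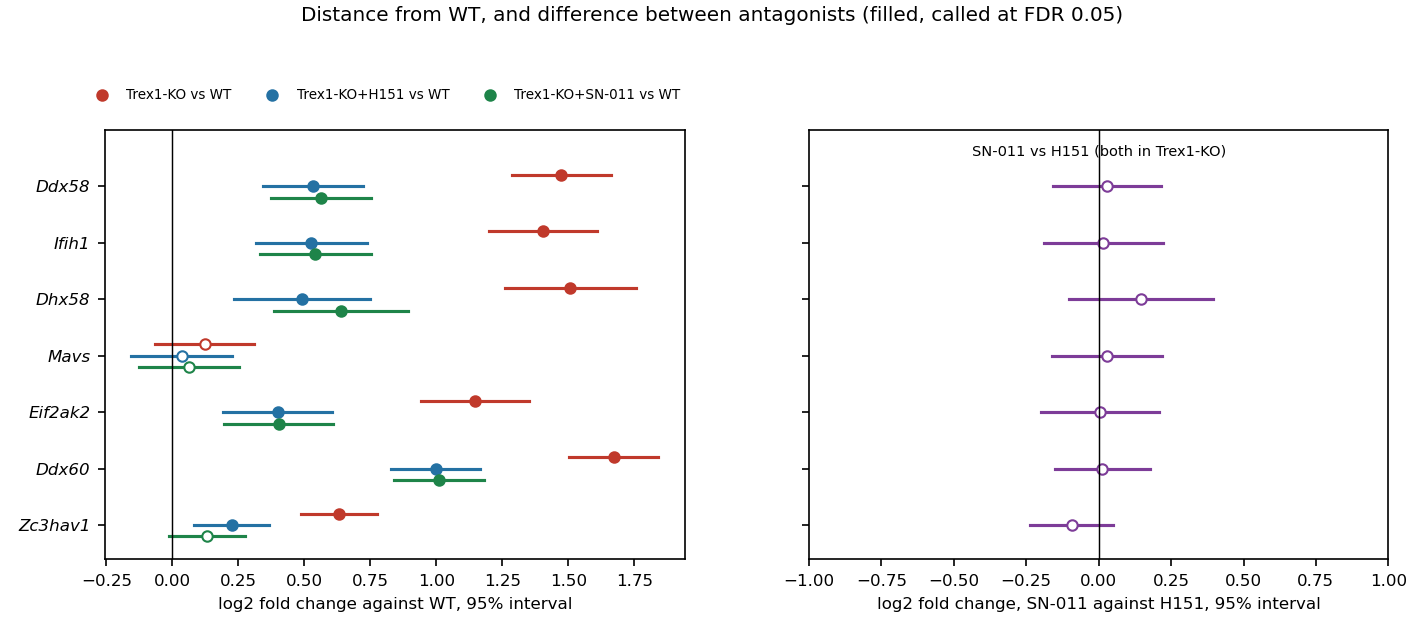
Left, log2 fold changes against WT with 95% intervals for the 3 knockout groups. Right, the difference between SN-011 and H151. On the left, Ddx60 keeps a log2 fold change of 1.00 with H151 and 1.01 with SN-011. On the right, all 7 intervals cross 0.

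The rest of the pathway was read from lists drawn up with the same prior knowledge of the data. Among 15 regulators of the receptors (ubiquitin ligases, phosphatases and 14-3-3 proteins), 14 were tested and 1 rose in Trex1-KO, near the 9.27% of all tested genes that rose, with a median log2 fold change of 0.06, or -0.02 with total counts only. It was Trim25, a ubiquitin ligase of RIG-I and a cofactor of ZAP, at 428 and 467 CPM in WT and 651 and 657 in Trex1-KO (log2 fold change 0.55, edgeR FDR = 2.36e-05). With antagonist its values lay between those of WT and Trex1-KO, with log2 fold changes of -0.22 with H151 (edgeR FDR = 0.0953) and -0.23 with SN-011 (edgeR FDR = 0.0692).

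Downstream of MAVS, 27 of 28 listed genes were tested, and 6 rose and 0 fell in Trex1-KO, where 9.27% of all tested genes rose. The median log2 fold change was 0.10. With total counts only, 5 rose and the median was 0.02. Irf7, the interferon-inducible factor activated by TBK1 and IKKε, was measured at 83.6 and 66.9 CPM in WT, 479 and 445 in Trex1-KO, 211 and 274 with H151, and 256 and 293 with SN-011. Its log2 fold changes were 2.62 in Trex1-KO (edgeR FDR = 7.16e-09), -0.93 with H151 (edgeR FDR = 0.000324) and -0.75 with SN-011 (edgeR FDR = 0.00200). Tank, a scaffold of TBK1, rose by 0.61 in Trex1-KO (edgeR FDR = 4.97e-05) and fell by 0.40 with H151 and by 0.36 with SN-011 (edgeR FDR = 0.00726 and 0.0158). Nlrx1, a mitochondrial NLR protein, averaged 12.8 CPM in WT against 19.7 in Trex1-KO (edgeR FDR = 0.00855) and was called with neither antagonist. The other 3 genes that rose were Azi2, Ikbke and March5. In this list 4 genes fell with H151 and 3 with SN-011, and 0 rose, where 1.84% and 2.22% of all tested genes fell. Tbk1 and Irf3, which are the kinase and the factor shared with the STING pathway, had log2 fold changes of 0.16 and -0.07 in Trex1-KO (edgeR FDR = 0.0920 and 0.666), and were singled out here after their values were seen.

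Interferon genes, the output of this pathway, were at or near 0 counts in these libraries. Ifnb1 had 0 to 2 counts in a library and 6 counts over the 8 libraries. Ifna1, Ifna2, Ifna4, Ifna5, Ifnl2 and Ifnl3 had 0 counts in every library, which allows up to 3 counts each, or 0.174 to 0.253 CPM before TMM scaling, depending on the depth of the library.

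Around PKR, 18 of 19 listed genes were tested, and 2 rose and 0 fell in Trex1-KO, a count near the 9.27% of all tested genes. The median log2 fold change was -0.03. Adar, which edits double-stranded RNA, was measured at 93.6 and 85.3 CPM in WT, 192 and 176 in Trex1-KO, 113 and 123 with H151, and 118 and 116 with SN-011. It was the 1 gene of this list that fell with either antagonist (1.84% of all tested genes fell with H151 and 2.22% with SN-011), with log2 fold changes of 1.04 in Trex1-KO (edgeR FDR = 2.49e-07), -0.64 with H151 (edgeR FDR = 0.000126) and -0.65 with SN-011 (edgeR FDR = 0.000127). Ppp1r15b, a subunit of the eIF2 phosphatase, had a log2 fold change of 0.26 (edgeR FDR = 0.00895). With total counts only, the list had 1 gene called higher and 1 lower, and the median was -0.12.

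For ZAP, 20 of 21 cofactors and RNA decay genes were tested, and 5 rose and 0 fell in Trex1-KO, where 9.27% of all tested genes rose. The median log2 fold change was 0.00, and 1 gene fell with H151 and 2 with SN-011 (1.84% and 2.22% of all tested genes). With total counts only, 3 were called higher and 1 lower, and the median was -0.08. Dcp2, the decapping enzyme, rose by 0.57 on the log2 scale (edgeR FDR = 0.000202) and fell by 0.45 with H151 and by 0.42 with SN-011 (edgeR FDR = 0.00654 and 0.00995). Xrn1, the 5′ to 3′ exonuclease, rose by 0.39 (edgeR FDR = 0.00212) and was called with neither antagonist. Together with Trim25, N4bp1 and Dcp1a made up the 5, and N4bp1 was the other gene of this list that fell with SN-011 (log2 fold change -0.45, edgeR FDR = 0.00906).

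The helicase family as a whole gave another background for Ddx58, Dhx58 and Ddx60. Of 50 other genes of the DEAD-box and DEAH-box families, 48 were tested, and 1 rose and 1 fell in Trex1-KO (1352 and 1038 of all 14591 tested genes), with a median log2 fold change of -0.00, or -0.09 with total counts only. Ddx24 rose by 0.34 (edgeR FDR = 0.00562). Ddx3y, on the Y chromosome, fell from 138 and 138 CPM in WT to 44.5 and 49.1 in Trex1-KO, a log2 fold change of -1.56 (edgeR FDR = 7.16e-09). No gene of this list was called with H151 or SN-011, where 1.84% and 2.22% of all tested genes fell.

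RNA sensors outside the list gave 9 of 10 called higher in Trex1-KO and 0 lower, with a median log2 fold change of 1.34, and 6 of 10 called lower with each antagonist. Of all tested genes, 9.27% were called higher in Trex1-KO, 1.84% lower with H151 and 2.22% lower with SN-011. Oas3, an oligoadenylate synthetase that binds double-stranded RNA, had a log2 fold change of 2.39 (edgeR FDR = 2.81e-09), Ifit1, which binds RNA lacking a methylated cap, had one of 2.38 (edgeR FDR = 3.82e-07), and Zbp1, a sensor of Z-form nucleic acid, had one of 2.12 (edgeR FDR = 3.05e-08). With H151 these 3 had log2 fold changes of -1.09, -1.76 and -1.06, and with SN-011 of -1.09, -1.60 and -1.09. Among the endosomal receptors Tlr7, Tlr8 and Tlr13, which sense single-stranded or ribosomal RNA, all 3 rose in Trex1-KO, by 0.30 to 0.60 on the log2 scale, and none was called with either antagonist, while Tlr3, the receptor for double-stranded RNA, rose by 1.12 and fell by 0.53 and 0.58.

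**Figure D4:**
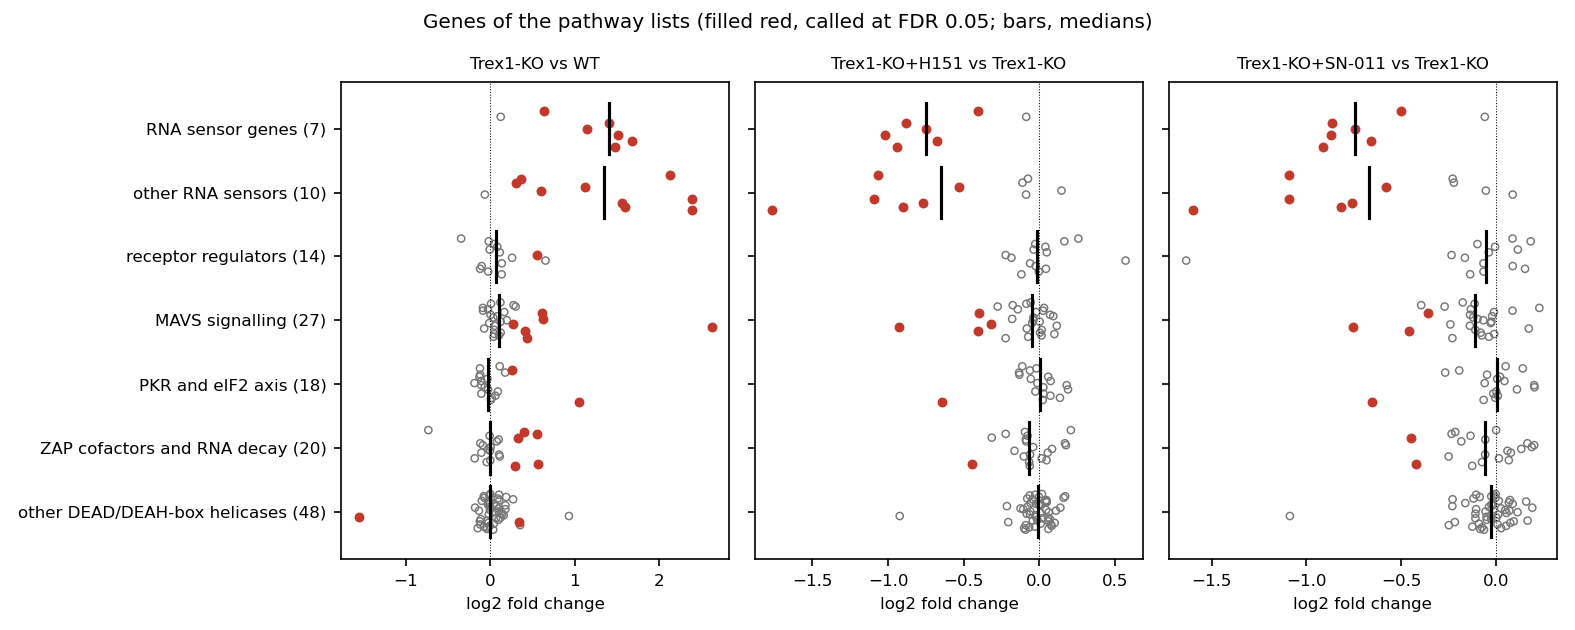
Log2 fold changes of every tested gene in the pathway lists for Trex1-KO against WT and for each antagonist against Trex1-KO, with the number tested in brackets, filled red points for calls at an FDR of 0.05 and bars for medians. The medians of the sensors (1.40) and of the other RNA sensors (1.34) lie to the right in the first panel, and those of the other 5 lists lie between -0.03 and 0.10.

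Genes with the most similar pattern were found for each gene from log2 CPM over the 8 libraries, among 10708 genes whose log2 CPM averaged 2 or more. The libraries fall into groups, so Pearson's r describes mainly the differences between groups, and no test was made. Closest to Ddx58 were Trim30a (r = 0.999) and Slfn5 (r = 0.998), and closest to Ifih1 were Slfn5 and Fbxw17 (both r = 0.999). Rsad2 and Ifit2 came closest to Dhx58 (both r = 0.997), Ifi35 and Fbxw17 to Eif2ak2 (both r = 0.995), Oasl2 (r = 0.998) and Ifi209 (r = 0.997) to Ddx60, and Lcp2 and Acp2 to Zc3hav1 (both r = 0.991). Ddx60 and its closest gene kept a like order of groups, with Oasl2 at 107 CPM in WT, 576 in Trex1-KO, 268 with H151 and 278 with SN-011 (means, n = 2). For Mavs, whose values differ little, the closest genes were Tbck (r = 0.982) and Il3ra (r = 0.929).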

How the data were processed

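The authors trimmed reads with Trimmomatic and aligned them with hisat2. Genes were counted with featureCounts per the methods, whereas the labels name HTSeq; per the labels the build was mm10, the UCSC name of GRCm38. Libraries were strand-specific per the methods. Versions, annotation release and the strand option used in counting are not given in the sources used here. The deposited values are raw counts per Ensembl gene, 1 table for each library. Symbols, positions and exonic lengths came from GENCODE mouse release 21 (GRCm38), which held 54495 of 54532 identifiers. Ddit3 matched more than 1 identifier and was left out.

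Counts were tested in R 4.3.3 with edgeR 4.0.16 (filterByExpr with min.count = 10 and min.total.count = 15, leaving 14591 genes; TMM factors from 0.973 to 1.04; 1 quasi-likelihood fit of all 8 libraries with 1 mean per group; two-sided; Benjamini-Hochberg over all tested genes). SEs were derived from the F statistics, and 95% intervals from them, so both are approximate. DESeq2 1.42.0 was an alternative. Fits were tested on simulated data. Intervals and floors cover counting error only where counts are given alone, since reads without molecular identifiers are not independent molecules.

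The members and lists were chosen with earlier results of these data known. FDR in the report is the adjusted p-value of edgeR unless another tool is named. Named were the 7 genes, from each pathway list up to 3 called genes with the largest change in Trex1-KO against WT, and the 2 genes most correlated with each of the 7; any other gene was named after its values were seen. Matches between transcripts were searched with BLAST.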

Additional observations from a re-analysis of the deposited data

How the results depend on the processing

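Of 42 fold changes (7 genes in 6 comparisons) under 504 combinations with another setting, 478 kept their direction and their side of the threshold, 14 lost a call and 12 changed sign. All 14 lost calls concerned the distance from WT under an antagonist, and all 12 changes of sign concerned values that were not called. With total counts only, the log2 fold change of Mavs for H151 against WT was -0.0251. Leaving out 1 library gave Mavs from -0.233 to 0.0518 for H151 against Trex1-KO, from -0.1241 to 0.1656 for H151 against WT and from -0.1119 to 0.178 for SN-011 against H151. In that last comparison Ddx58 ran from -0.0304 to 0.0957, Ifih1 from -0.107 to 0.1554, Eif2ak2 from -0.1098 to 0.117 and Ddx60 from -0.0839 to 0.1073.

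Leaving out 1 library kept 6 of the 7 genes called in Trex1-KO against WT and with each antagonist against Trex1-KO, and 0 between antagonists. The counts against WT ran from 2 to 6 with H151 and from 3 to 5 with SN-011. Over all genes, leaving out 1 library gave 1556 to 1933 calls in Trex1-KO against WT, 231 to 357 with H151, 131 to 302 with SN-011, 971 to 1772 for H151 against WT, 909 to 1159 for SN-011 against WT, and 2 to 291 between antagonists, where the count was 23 with all libraries. Keeping every gene with at least 1 count gave 525 calls with H151 (325 as reported), 679 with SN-011 (340) and 266 between antagonists, where DESeq2 gave 35 and the edgeR exact test 84. With that filter, the adjusted p-values of the 6 genes called in Trex1-KO against WT were far smaller in that comparison, down to 6.80e-105 for Ddx60, while that of Mavs was 0.695 (0.412 as reported). The causes of these shifts were not tested. With total counts only, calls were 715 higher and 998 lower for H151 against WT (990 and 736 with TMM) and 703 higher and 1042 lower for SN-011 against WT (902 and 812).

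The replicate numbers in the titles are shared by all groups, and the labels do not say what they mark. Across genes, the deviation of a library from its group mean correlated with that of the library of the same number at 0.194 between Trex1-KO and H151 and at -0.02 to 0.06 for the other 5 pairs of groups. With this number fitted as a replicate block, 44 genes passed between antagonists, and the counts of the 7 genes called were 6, 6, 6, 0, 6 and 5 in the 6 comparisons, as without it.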

Other observations

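Because Ddx3y stood out among the helicases, other genes that differ between the sexes were looked at after its values were seen. Eif2s3y, whose product is a copy of an eIF2 subunit, averaged 117 ± 3.2 CPM in WT against 38.0 ± 0.76 in the Trex1-KO libraries (SD, n = 2), Kdm5d at 63.7 ± 1.2 and 21.7 ± 0.68 CPM, and Uty at 48.3 ± 2.9 and 19.3 ± 1.7 CPM. With antagonist, Eif2s3y averaged 34.7 (H151) and 39.0 (SN-011) CPM. All 6 knockout libraries thus held lower levels of these Y-linked genes than either WT library, at similar values to each other. Xist, which is transcribed from the inactive X chromosome, was measured at 3.02 to 4.24 CPM over the 8 libraries. The part of sex in the comparisons with WT was not tested.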
